A study of Mus musculus with 8 samples.

Results

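A set of 6 genes of the actin cytoskeleton was followed across 4 treatments, namely the filamins *Flna* and *Flnc*, the alpha-actinins *Actn1* and *Actn4*, *Misp* and *Tgm2*. They are 6 of the 50600 genes in the deposited expression table. They were chosen by name from earlier results on these same libraries, because several of them fell strongly when both compounds were given together, so their values are given below as a description, without a test, in every comparison that uses the DMSO or the P+B libraries. Counts of calls in those comparisons are given only in the closing section, to show how the processing moves them. The choice followed no numerical threshold, and *Actn4* hardly moved.

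The cells were JUN TetON ESCs, that is OG2 transgenic mouse embryonic stem cells of mixed 129SVJ, C57B6 and CBA strain in which doxycycline switches on *Jun*, grown without feeders in 2i medium (PD0325901 and Chir99021) with LIF. All 4 groups received 2 µg/ml doxycycline, and they were given for 6 h, per the labels, the solvent DMSO, PFI-3, BI-9564, or PFI-3 together with BI-9564 (P+B). The study used PFI-3 as an inhibitor of the bromodomain of BRG1 (gene *Smarca4*) and BI-9564 as an inhibitor of the bromodomains of BRD7 and BRD9, to ask how far the genes that JUN switches on depend on these acetyl-lysine readers of the BAF chromatin remodelling complexes. Each group had 2 libraries, 8 in all, and there was no group without doxycycline among them. The labels do not say whether the 2 libraries of a group came from separate cultures, so the p-values measure the spread between these libraries, which may be technical. The labels also give no dose of either compound, and P+B may hold another amount of each than the single treatments.

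Filamins are long, rod-like dimers that join actin filaments at wide angles into a loose network and tie it to integrins at the membrane. Alpha-actinins are short antiparallel dimers that hold filaments side by side, in stress fibres and at focal adhesions. MISP is an actin-bundling protein of the cell cortex and of retraction fibres that helps to position the mitotic spindle, and TGM2, tissue transglutaminase, forms covalent bonds between proteins and also binds fibronectin and integrins at the cell surface. Cells that leave the compact colonies of pluripotent culture and spread build up such structures.

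The values are TPM (relative transcript abundance corrected for length), which the authors made whole numbers. Levels of different genes can therefore be set side by side, but TPM keeps no read depth, and the counting error behind a value of 2 or 5 is unknown. *Jun*, the gene that doxycycline switches on, was at 1970 and 2877 TPM under DMSO, 1570 and 2227 under PFI-3, 2071 and 3011 under BI-9564 and 1569 and 2159 under P+B. Relative to the DMSO library of the same number it was at 0.797 and 0.774 under PFI-3, 1.05 and 1.05 under BI-9564 and 0.796 and 0.75 under P+B, and its part in the changes below was not tested. A list of 10 marker genes of embryonic stem cells summed to between 3378 and 5302 TPM per library. With P+B against DMSO 5 of these 10 were lower and 5 higher, with a median log2 fold change of −0.02. Of all genes tested, 41.7% were lower. Of the 10 markers, 1 passed the thresholds given below, the Nodal co-receptor *Tdgf1*, which fell to 0.523 of its DMSO level (log2 fold change −0.93, SE 0.14, limma adjusted p = 0.00916). The largest rise was that of *Klf2*, at 1.03 (SE 0.25, limma adjusted p = 0.0568). Without regard to a test, 10 of the 10 were higher under PFI-3 than under DMSO (median log2 fold change 0.42) and 8 were lower under BI-9564 (median −0.16). Of all genes tested, 45.2% were lower under PFI-3 and 45.9% under BI-9564. The part of these marker changes in the results below was not tested. A list of 10 fibroblast markers summed to 2 to 9 TPM, with 5 of them at 0 in every library, 10 muscle markers to 5 to 10, with 3 at 0, 8 endoderm markers to 3 to 10, with 4 at 0, and 8 trophoblast markers to 23 to 34, with 1 at 0. These are whole cultures, in which fewer cells of a type and less RNA per cell cannot be told apart.

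The 6 genes lie on 6 chromosomes (GENCODE M21 annotation of GRCm38, which is mm10, the build of the authors). *Flna* is at chrX:74223461-74249820 on the minus strand, *Flnc* at chr6:29433256-29461883 on the plus strand, *Actn1* at chr12:80167547-80260371 on the minus strand, *Actn4* at chr7:28893248-28962340 on the minus strand, *Misp* at chr10:79820989-79830490 on the plus strand and *Tgm2* at chr2:158116402-158146436 on the minus strand. Other annotated genes overlap 3 of the 6. *Tgm2* shares 15896 bases with *Rprd1b* and 752 with *Gm20412*, *Actn4* shares 316 with *Capn12* and *Actn1* shares 929 with *Gm47766* and 2674 with *Gm47767*, all on the opposite strand. On the same strand *Gm44699* shares 22578 bases with *Actn4* and is annotated as sense intronic, and *Gm47765* shares 1269 with *Actn1*. The library kit is not stated to keep strand, so reads of such stretches cannot be assigned with certainty. Of all 50-base words in their annotated transcripts *Flna* and *Flnc* share 0. *Actn1* and *Actn4* share 16, which is 0.29% and 0.254% of their words, and *Tgm1* and *Tgm2* share 0.

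RefSeq (GRCm38.p6) gives promoter sequences for 4 of the 6 genes, shown here because *Flnc* and *Flna*, and *Actn1* and *Actn4*, are pairs of relatives that moved by different amounts. Each sequence runs 5′ to 3′ on the strand of its gene, from 250 bases before the start site to 50 after it. Capitals mark matches to AP-1 (TGANTCA, N being any base), CRE (TGACGTCA), TEAD (GGAATG) or the CArG box of SRF, searched on both strands. The AP-1 letters are looser than TGACTCA and TGAGTCA, the sites that JUN dimers bind.
Flnc, chr6:29433006-29433305, plus strand: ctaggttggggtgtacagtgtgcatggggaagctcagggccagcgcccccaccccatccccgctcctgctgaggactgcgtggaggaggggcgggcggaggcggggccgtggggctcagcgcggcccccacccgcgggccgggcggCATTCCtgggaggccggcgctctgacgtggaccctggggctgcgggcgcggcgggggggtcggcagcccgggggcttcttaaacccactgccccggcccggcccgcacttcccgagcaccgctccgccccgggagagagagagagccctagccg
Flna, chrX:74246485-74246784, minus strand: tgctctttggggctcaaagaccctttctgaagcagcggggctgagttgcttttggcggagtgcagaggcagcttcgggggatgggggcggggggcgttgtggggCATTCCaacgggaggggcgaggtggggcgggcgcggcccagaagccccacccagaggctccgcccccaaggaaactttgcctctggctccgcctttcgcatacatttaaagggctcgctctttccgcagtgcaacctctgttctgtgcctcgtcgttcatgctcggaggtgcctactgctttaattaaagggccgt
Actn1, chr12:80260314-80260613, minus strand: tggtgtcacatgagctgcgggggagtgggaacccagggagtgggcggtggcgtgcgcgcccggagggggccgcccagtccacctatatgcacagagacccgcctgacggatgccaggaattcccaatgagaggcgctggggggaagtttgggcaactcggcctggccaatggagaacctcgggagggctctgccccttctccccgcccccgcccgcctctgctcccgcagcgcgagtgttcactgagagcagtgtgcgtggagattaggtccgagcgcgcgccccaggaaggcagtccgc
Actn4, chr7:28962283-28962582, minus strand: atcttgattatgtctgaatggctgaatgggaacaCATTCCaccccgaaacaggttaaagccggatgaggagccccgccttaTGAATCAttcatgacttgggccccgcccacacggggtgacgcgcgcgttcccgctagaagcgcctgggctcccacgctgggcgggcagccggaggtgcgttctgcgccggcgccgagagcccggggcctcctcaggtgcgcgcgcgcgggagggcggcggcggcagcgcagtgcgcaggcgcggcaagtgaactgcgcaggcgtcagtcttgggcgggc
The only match to the loose AP-1 letters among these 4 windows was in *Actn4*, 169 bases before its start. It reads TGAATCA, which is neither of the sites that JUN dimers bind. *Misp* and *Tgm2* have no window here, and a link between a match and the size of a change was not tested. Of 32851 RefSeq promoter windows of this length, 7.81% held a match to the same loose letters. A TEAD match stood 104 bases before the start of *Flnc*, 146 before that of *Flna* and 216 before that of *Actn4*, against 14.7% of all windows. CRE and CArG had 0 matches here, against 1.79% and 1.63% of all windows. The SP1 letters GGGCGG, not put in capitals and with overlapping matches counted separately, were found 4 times each for *Flnc*, *Actn1* and *Actn4* and 3 times for *Flna*, and 35.7% of all windows held them. The windows are rich in G and C, at 76.3%, 62.0%, 68.3% and 68.0% in the order shown, against a median of 52.7%. The *Flna* window is set on a RefSeq start at chrX:74246534, which lies inside the GENCODE span of the gene, whose 5′ end is at chrX:74249820. RefSeq also gives a start of *Flnc* at chr6:29433153, whose window is not shown. Its TEAD match is 1 base before that start, with 3 SP1 matches and 66.0% G and C. A match is a description of letters and no evidence of binding, and sites outside these windows were not searched.

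*Flnc*, the filamin best known from muscle, differed more from DMSO with P+B than *Flna*. It was at 52 and 61 TPM under DMSO, 25 and 21 under PFI-3, 38 and 29 under BI-9564 and 10 and 5 under P+B. The 4 groups did not overlap at any point, and they stood in the order DMSO, BI-9564, PFI-3, P+B. The ratio of the mean levels, DMSO over P+B, was 7.53, and could lie between 6.65 and 7.67 if decimals were dropped when the values were made whole. The log2 fold change of P+B against DMSO, on the scale of log2(TPM + 1), was −2.82 (SE 0.28, n = 2 libraries per group). Muscle markers were at or near 0 in these cells, as given above.

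*Flna*, the main filamin of non-muscle cells, was at 198 and 228 TPM under DMSO, 170 and 204 under PFI-3, 170 and 192 under BI-9564 and 155 and 145 under P+B. Only the P+B libraries were below all the others, and with PFI-3 the values overlapped those with DMSO. The log2 fold change with P+B was −0.50 (SE 0.12). *Flnc* thus lost ground to *Flna*. The ratio of *Flnc* to *Flna* within a library averaged 0.265 (SD 0.0035) under DMSO, 0.125 (SD 0.031) under PFI-3, 0.187 (SD 0.051) under BI-9564 and 0.0495 (SD 0.021) under P+B.

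**Figure D1:**
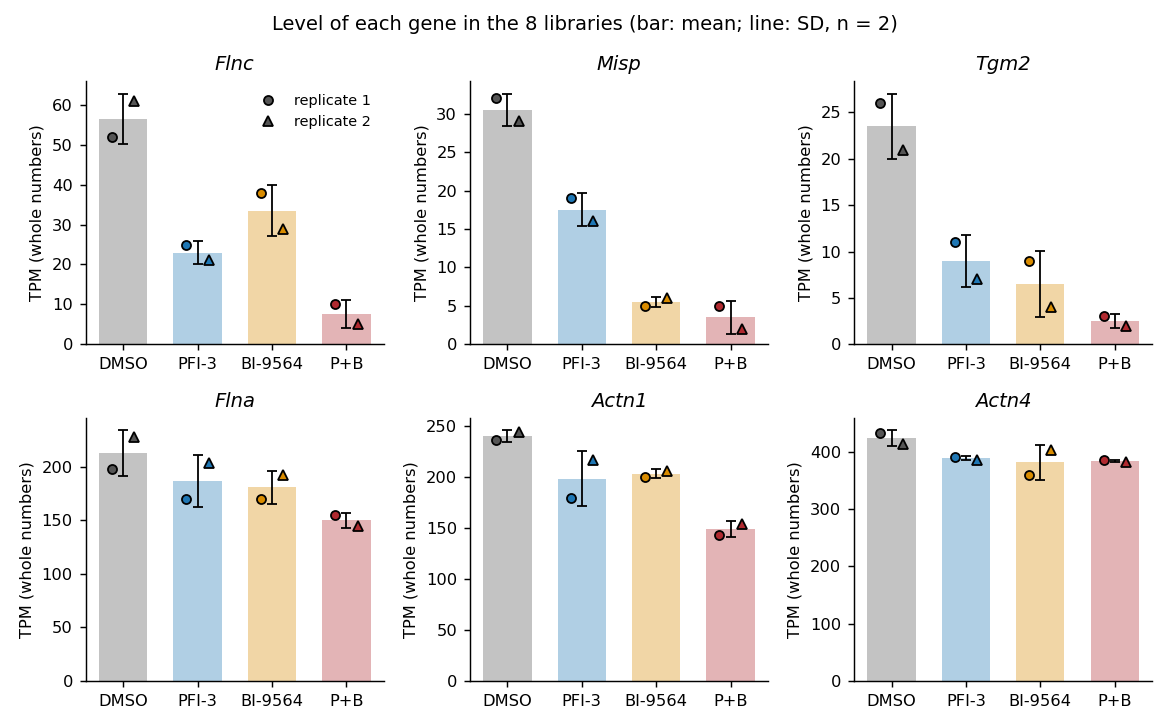
Level in TPM (y axis, linear, from 0) of each of the 6 genes in the 8 libraries by treatment (x axis), with circles for replicate 1, triangles for replicate 2, bars for the mean and lines for the SD (n = 2). *Flnc*, *Misp* and *Tgm2* in the upper row were at 7.5, 3.5 and 2.5 TPM on average with P+B, while *Actn4* stayed between 360 and 434 TPM in all libraries.

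Of the alpha-actinins, both non-muscle forms were expressed and differed in size of change. *Actn1* was at 236 and 244 TPM under DMSO, 179 and 217 under PFI-3, 200 and 206 under BI-9564 and 143 and 154 under P+B. It was below DMSO in every treated library and lowest with P+B, while the 2 single compounds overlapped. *Actn4* was at 434 and 414 TPM under DMSO, 392 and 387 under PFI-3, 360 and 404 under BI-9564 and 386 and 383 under P+B. Its treated libraries were all slightly below DMSO, and those of BI-9564 spanned those of PFI-3 and P+B. The log2 fold change with P+B was −0.69 (SE 0.10) for *Actn1* and −0.14 (SE 0.08) for *Actn4*. The ratio of *Actn1* to *Actn4* within a library was 0.544 and 0.589 under DMSO and 0.37 and 0.402 under P+B. The muscle forms were near absent, with *Actn2* at 0 in all 8 libraries and *Actn3* at 1 to 3 TPM, and neither was tested.

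*Misp* was at 32 and 29 TPM under DMSO, 19 and 16 under PFI-3, 5 and 6 under BI-9564 and 5 and 2 under P+B. With BI-9564 alone it was already close to its level with P+B, and these 2 groups met at 5 TPM, whereas PFI-3 left it between DMSO and the rest. The ratio of means, DMSO over P+B, was 8.71 (6.78 to 9 if decimals were dropped), and the log2 fold change −2.89 (SE 0.32). *Misp3*, its relative, was not analysed here.

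*Tgm2* was at 26 and 21 TPM under DMSO, 11 and 7 under PFI-3, 9 and 4 under BI-9564 and 3 and 2 under P+B. All treated libraries were below DMSO, the single compounds overlapped and P+B was lowest. The ratio of means was 9.4 (6.71 to 9.8 if decimals were dropped), and the log2 fold change −2.81 (SE 0.38). Its relative *Tgm1*, the transglutaminase of the epidermal cornified envelope, was the most abundant of the family, at 93 and 76 TPM under DMSO, 69 and 65 under PFI-3, 44 and 39 under BI-9564 and 35 and 31 under P+B. *Tgm1* is no member and was tested, and it fell with P+B to 0.399 of its DMSO level (log2 fold change −1.33, SE 0.14, limma adjusted p = 0.00282). This call was kept with each of the 8 libraries left out (adjusted p 0.00987 to 0.0383), and was lost in a fit of only the 4 libraries compared (adjusted p = 0.1). *Tgm1* also overlaps the antisense gene *Gm49067*. The ratio of *Tgm2* to *Tgm1* was 0.28 and 0.276 under DMSO and 0.0857 and 0.0645 under P+B. *Tgm3* was at 1 to 2 TPM, *Tgm4* at 1 in a single PFI-3 library, and *Tgm5*, *Tgm6*, *Tgm7*, *F13a1* and *Epb42* were at 0 in all libraries.

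**Figure D2:**
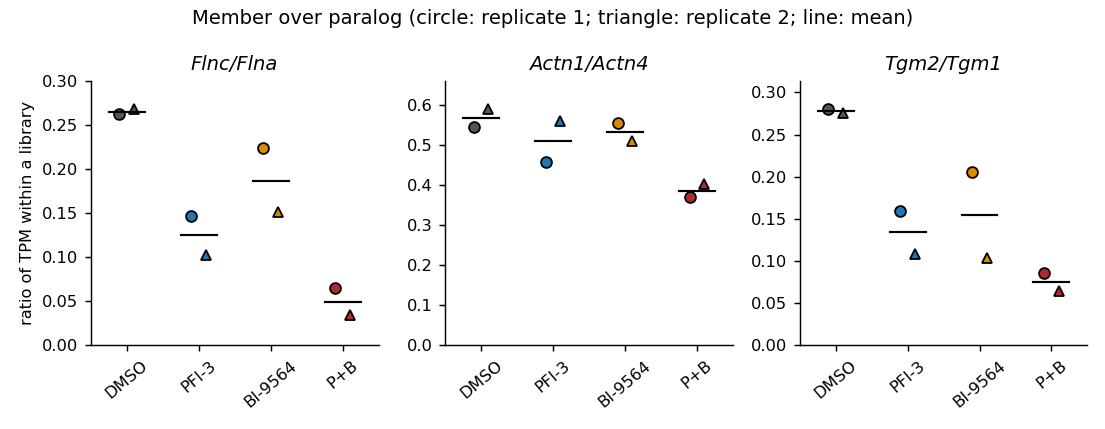
Ratio of the TPM of a member to that of a relative within each library (y axes, linear, from 0) by treatment (x axes), with circles for replicate 1, triangles for replicate 2 and a line for the mean (n = 2). *Flnc* over *Flna*, *Actn1* over *Actn4* and *Tgm2* over *Tgm1* were lowest with P+B, at means of 0.0495, 0.386 and 0.0751.

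All 6 genes passed the filter for testing, a mean of at least 5 TPM over the 8 libraries, but *Misp* and *Tgm2* passed through their level with DMSO and PFI-3 and were at 5 TPM or less in both P+B libraries. Where a test is given, a gene was called when its limma adjusted p-value was under 0.05 and its fold change at least 1.5, and with P+B against DMSO 2.72% of all 10222 genes tested were called lower. The median log2 fold change of the 6 was −1.75, beside 0.06 over all genes tested. For all 6 both P+B libraries were below both DMSO libraries, as were 18.9% of all genes tested. An exact permutation test of 2 libraries against 2 cannot go below p = 0.333, so calls rest on a spread that limma shares across groups and genes.

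With PFI-3 alone against DMSO, the log2 fold change was −1.31 (SE 0.38) for *Tgm2*, −1.26 (SE 0.28) for *Flnc* and −0.77 (SE 0.32) for *Misp*. That of *Actn1*, *Flna* and *Actn4* lay between −0.28 and −0.12. Both PFI-3 libraries were below both DMSO libraries for 5 of the 6, all but *Flna*, beside 12.8% of all genes, and 0% of all genes tested were called lower. The median of the 6 was −0.53, beside 0.02 over all genes tested.

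With BI-9564 alone *Misp* had the largest difference from DMSO, a log2 fold change of −2.28 (SE 0.32), a fold of 0.206. *Tgm2* had −1.79 (SE 0.38) and *Flnc* −0.74 (SE 0.28), and *Actn1*, *Flna* and *Actn4* lay between −0.24 and −0.15. Both BI-9564 libraries were below both DMSO libraries for all 6, beside 18.3% of all genes, and 0.0783% of all genes were called lower. The median of the 6 was −0.49, beside 0.02 over all genes tested. *Tgm1*, which was tested, had −1.0 (SE 0.14) at a limma adjusted p of 0.0516, and 0.0141 with the replicate number as a block.

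**Figure D3:**
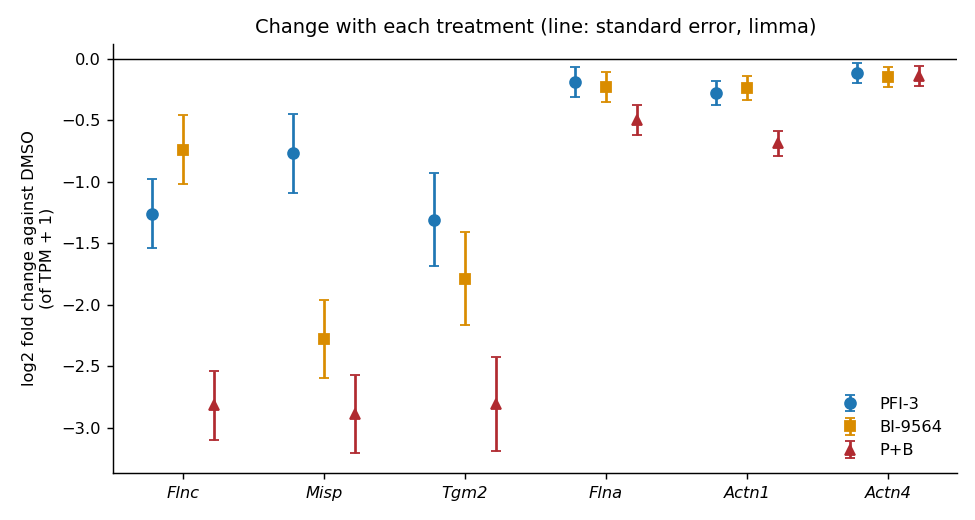
Log2 fold change of TPM + 1 against DMSO (y axis) for each of the 6 genes (x axis) with PFI-3 (circles), BI-9564 (squares) and P+B (triangles), with lines for the standard error from limma (n = 2 libraries per group). The P+B values of *Flnc*, *Misp* and *Tgm2* lay between −2.89 and −2.81, and those of *Flna*, *Actn1* and *Actn4* between −0.69 and −0.14. With a pseudocount of 5 in place of 1 the P+B values were −2.32 for *Flnc*, −2.08 for *Misp* and −1.92 for *Tgm2*, so their closeness depends on this choice.

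In the direct comparison of BI-9564 with PFI-3 the fold changes use no library of the comparison that chose the genes, and the members were tested there. The spread behind their errors and p-values, and the filter, come from all 8 libraries. *Misp* was lower with BI-9564, by a log2 fold change of −1.51 (SE 0.32, 95% interval −2.25 to −0.77), and both of its BI-9564 libraries were below both of its PFI-3 libraries, as for 19.9% of all genes. Its limma adjusted p was 0.119, so it was not called, but it was called with the replicate block (adjusted p = 0.0469). *Tgm1* likewise had −0.68 (SE 0.14, adjusted p = 0.103), and 0.0247 with the block. *Flnc* pointed the other way, at 0.52 (SE 0.28, 95% interval −0.13 to 1.16, adjusted p = 0.462), with both BI-9564 libraries above both PFI-3 libraries, as for 20.5% of all genes. For *Tgm2* the difference was −0.47 with an interval from −1.35 to 0.41, which leaves room for a sizeable difference either way. Intervals were narrower for *Flna* (−0.32 to 0.23), *Actn1* (−0.20 to 0.28) and *Actn4* (−0.21 to 0.15). In all, 0 of the 6 were called, 1 (*Misp*) had an unadjusted p under 0.05, beside 14.2% of all genes tested in either direction, and of all genes 0.0783% were called lower and 0.0293% higher. Whether the compounds were given at matched doses is not stated in the labels.

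**Figure D4:**
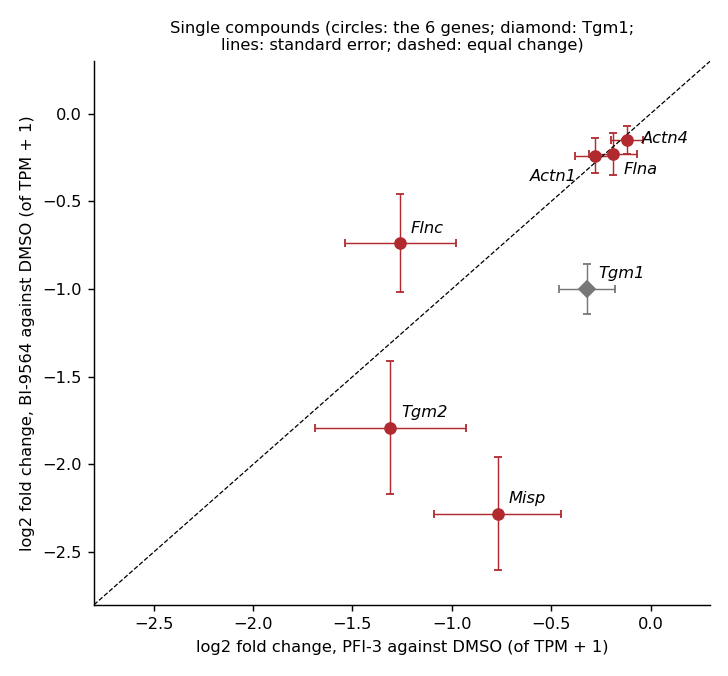
Log2 fold change of TPM + 1 against DMSO with PFI-3 (x axis) and with BI-9564 (y axis), for the 6 genes (circles) and for the relative *Tgm1* (diamond), with lines for the standard error from limma; both axes share the DMSO libraries. *Misp*, *Tgm2* and *Tgm1* lie below the dashed line of equal change, *Flnc* above it, and *Flna*, *Actn1* and *Actn4* near its upper end.

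P+B was then set against each single compound. Against PFI-3, the log2 fold change was −2.12 (SE 0.32) for *Misp*, −1.56 (SE 0.28) for *Flnc* and −1.50 (SE 0.38) for *Tgm2*. It was −0.41 (SE 0.10) for *Actn1*, −0.31 (SE 0.12) for *Flna* and −0.02 (SE 0.08) for *Actn4*. Both P+B libraries were below both PFI-3 libraries for all 6, beside 18.9% of all genes, and 1.05% of all genes were called lower. *Tgm1*, too, was lower under P+B than under PFI-3, by −1.0 (SE 0.14, limma adjusted p = 0.0177), a call lost without either PFI-3 or either P+B library (adjusted p up to 0.151).

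Against BI-9564, *Flnc* had the largest difference, a log2 fold change of −2.07 (SE 0.28). *Tgm2* had −1.03 (SE 0.38), *Misp* −0.61 (SE 0.32), *Actn1* −0.45 (SE 0.10), *Flna* −0.27 (SE 0.12) and *Actn4* 0.01 (SE 0.08). Without P+B replicate 2 the value of *Flnc* was −1.64, and without P+B replicate 1 it was −2.51. The P+B libraries were below both BI-9564 libraries for 4 of the 6 (*Flna*, *Flnc*, *Actn1* and *Tgm2*), beside 13.7% of all genes, and 0.196% of all genes were called lower. The log2 change with P+B was also set against the sum of the changes with the single compounds. The difference was −0.81 (SE 0.40) for *Flnc*, −0.17 for *Actn1*, −0.08 for *Flna* and 0.13 for *Actn4*. It was 0.16 (SE 0.46) for *Misp* and 0.29 (SE 0.54) for *Tgm2*. These values use the libraries that chose the genes, so whether the changes with the single compounds add up was not tested.

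Across the 8 libraries the members followed one another to different degrees, given as a description since the libraries share groups. Pearson's r of the log2 values was 0.93 between *Flna* and *Actn1*, 0.90 between *Misp* and *Tgm2* and 0.89 between *Flnc* and *Tgm2*, and 0.46 to 0.69 between *Actn4* and the other five. The genes most like each member by this measure were *Slc25a24* (r = 0.989), a mitochondrial carrier, and the secreted protease *Adamts9* (0.986) for *Flnc*. For *Misp* they were *Mvp* (0.993), the major vault protein, and the exchange factor *Dock5* (0.983). *Gcnt1* (0.996), a glycosyltransferase, and the keratin *Krt18* (0.986) came first for *Tgm2*, *Spsb1* (0.988) and the polyamine enzyme *Odc1* (0.984) for *Actn1*, and *Gadd45a* (0.962) and the chemerin receptor *Cmklr1* (0.961) for *Flna*. For *Actn4* they were *Ino80* (0.972) and *Clp1* (0.958), whose levels, like that of *Actn4*, barely moved. *Krt18*, a filament protein of simple epithelia, ran from 103 and 89 TPM under DMSO through 66 and 51 under PFI-3 and 58 and 38 under BI-9564 to 27 and 20 under P+B. How many genes reached r of at least 0.9 differed, from 5 for *Actn4* to 186 for *Misp*, with 73 for *Flna*, 99 for *Actn1*, 131 for *Flnc* and 163 for *Tgm2*.

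Among the other genes of actin crosslinking and of the members' partners, most did not share the steep fall for which several members were chosen. Of these genes 61 could be tested, and with P+B against DMSO 3 were called lower and 2 higher, beside 2.72% lower and 1.28% higher of all genes. Their median log2 fold change was −0.12, beside 0.06 over all genes tested. Without regard to a test 37 were lower and 24 higher, beside 41.7% lower of all genes tested. An unadjusted limma p under 0.05 was found for 41% of them (18 lower and 7 higher), beside 22.6% of all genes tested. With the relative *Tgm1* counted in, 6 of 62 were called, and 10 with the replicate block, which added *Utrn* (adjusted p = 0.0193), *Csrp1* (0.00226), *Adgrg1* (0.0369) and *Magi1* (0.0492), all lower.

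Of 19 other actin crosslinkers and bundlers tested, 2 were called lower and 1 higher with P+B against DMSO. Without regard to a call 12 were lower and 7 higher, beside 41.7% lower of all genes tested. An unadjusted limma p under 0.05 was found for 52.6% of the 19 (7 lower and 3 higher), beside 22.6% of all genes tested. *Sptbn1* had −0.56 (SE 0.11, adjusted p = 0.0266), below the fold threshold. The giant spectraplakins *Macf1* and *Dst*, which link actin to microtubules, fell by 0.76 (SE 0.13, limma adjusted p = 0.0179) and by 0.61 (SE 0.10, adjusted p = 0.0164) in log2. *Espn*, espin, the bundler of hair cell stereocilia and microvilli, rose by 1.29 (SE 0.19, adjusted p = 0.00908). It was at 11 and 10 TPM under DMSO, 13 and 11 under PFI-3, 22 and 29 under BI-9564 and 27 and 27 under P+B, so that it was high in every library with BI-9564, the libraries in which *Misp* was low. Of 4 filamin partners tested *Hspb8*, the chaperone that works with BAG3 to clear damaged filamin, fell by 0.96 (SE 0.21, adjusted p = 0.0431). Of 17 partners of MISP and spindle positioning genes *Gnai1*, a G protein subunit of the cortical complex that anchors the spindle, rose by 1.24 (SE 0.26, adjusted p = 0.0371), from 4 and 6 TPM to 13 and 13. In that list 3 lower and 3 higher had an unadjusted limma p under 0.05. Among them *Msn* had −0.52 (SE 0.10, adjusted p = 0.0242), below the fold threshold. The calls of *Espn* and *Dst* were lost without either DMSO or either P+B library (adjusted p up to 0.0805 and 0.114), and that of *Macf1* without either DMSO library or P+B replicate 1 (up to 0.12). That of *Hspb8* was kept only without P+B replicate 1 (up to 0.195), and that of *Gnai1* was lost without any one library (0.0638 to 0.167).

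In the remaining lists 0 genes were called by limma with P+B, and 22.6% of all genes tested had an unadjusted p under 0.05 in either direction. Of 8 alpha-actinin partners 4 had such a p, all lower, and the largest values were −0.75 for the junction scaffold *Magi1* (adjusted p = 0.0762) and −0.63 for *Csrp1* (adjusted p = 0.153). Of 7 partners of TGM2 at the cell surface 2 had such a p, the adhesion receptor *Adgrg1* at −1.0 (adjusted p = 0.0808) and the integrin subunit *Itgb1* at −0.41 (adjusted p = 0.0266, below the fold threshold). *Itgb1* was at 200 and 201 TPM under DMSO and at 152 and 149 under P+B. Of 6 actins and SRF-linked genes 2 had such a p, *Actb* and *Srf*, and the largest values were those of *Srf* at 0.47 (adjusted p = 0.108) and *Mkl2*, a cofactor of SRF, at 0.34 (adjusted p = 0.445). The actins that the crosslinkers bind stayed abundant, with *Actb* at 2648 and 2542 TPM under DMSO and 2335 and 2288 under P+B (log2 fold change −0.17, SE 0.06, adjusted p = 0.138). Median log2 fold changes were −0.23 for the crosslinkers, −0.09 for the filamin partners, −0.46 for the alpha-actinin partners, 0.01 for the MISP partners, −0.22 for the TGM2 partners and −0.01 for the actins and SRF-linked genes.

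**Figure D5:**
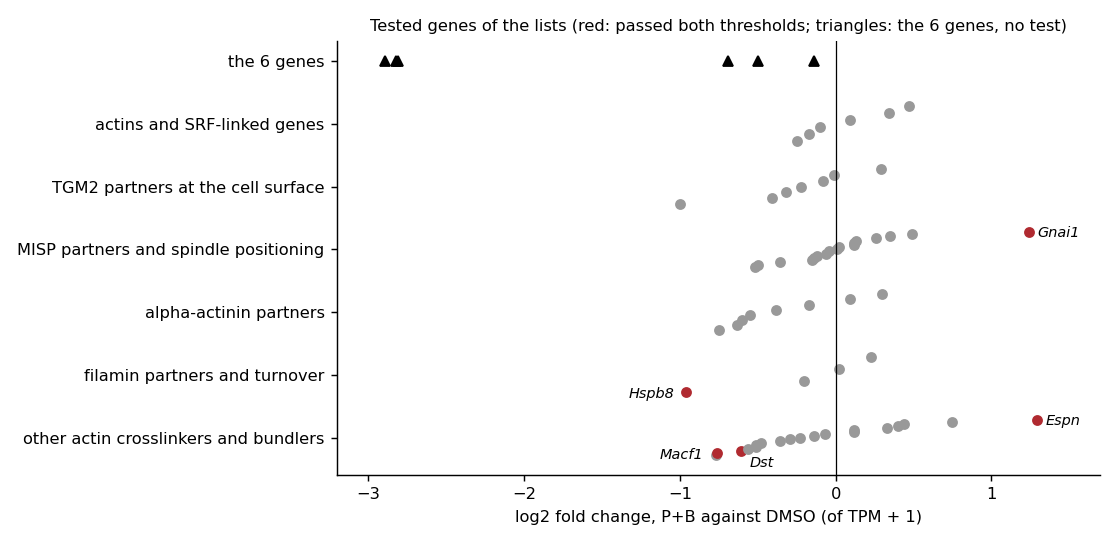
Log2 fold change of TPM + 1 with P+B against DMSO (x axis) for the tested genes of 6 lists (rows), with genes that passed both thresholds in red and named, and for the 6 members (triangles, no test). The 61 list genes lie between −1.0 and 1.29, and *Flnc*, *Misp* and *Tgm2* lie below −2.8, where no list gene is found. The members were chosen with their fall in this comparison known, so their distance from the list genes is no result.

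The tested messages of the compounds' targets did not pass with P+B against DMSO. *Smarca2*, in the same list of targets, had a mean of 4.125 TPM, under the filter, and was not tested. *Smarca4* had a log2 fold change of 0.13 (SE 0.10, limma adjusted p = 0.496), *Brd7* −0.10 (SE 0.18) and *Brd9* −0.12 (SE 0.16), and of the 5 genes tested in this list, which also holds *Jun* and *Pbrm1*, 0 were called in any comparison and 0 had an unadjusted p under 0.05.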

How the data were processed

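RNA-seq of 8 libraries was analysed (2 each of DMSO, PFI-3, BI-9564 and P+B), grouped by their titles. The submitters' processing notes name bcl2fastq, Bowtie2 2.2.5, RSEM 1.3.0 and mm10. The deposited values are a score per gene, TPM that the authors made whole numbers in a way not given in the sources used here, which makes low levels coarse. All values were whole, library sums were 991574 to 991897, 33075 of 50600 genes were at 0 in all libraries, and 187 rows shared a name with another. Depth is unknown, so count tools, DESeq2 of the study included, were not run.

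Values were compared as log2(value + 1) in limma 3.58.1 (R 4.3.3, lmFit and eBayes with trend), all groups together, on 10222 genes (mean at or above 5). Adjustment was by Benjamini-Hochberg over all genes tested, at 0.05 and a fold of at least 1.5. The fitting was tested on simulated data. The difference between replicates 1 and 2 correlated between all 6 pairs of groups (r 0.143 to 0.236 across genes). The main fit used no block, so errors, intervals and p-values ignore this pairing unless the block is named. With the replicate number as a block, the standard errors of the 6 members were smaller. For *Tgm2* with BI-9564 against DMSO the error was 0.26 in place of 0.38. The blocked fit is quoted only where a call depends on it.

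The members and lists were chosen with earlier results of these data known. Named are the members, their relatives, in each list the genes called with P+B or else the 2 with the largest change, the 2 genes most like each member, and the compounds' targets. *Actb*, *Utrn*, *Tdgf1*, *Klf2*, *Sptbn1*, *Msn* and the *Krt18* levels were named after their values were seen. Alternatives were the block, pseudocounts of 0.5 and 5, other filters, quantile normalization, median centring, eBayes without trend, a fit of the 4 libraries compared and leaving out each library. A pseudocount of 1.5, for decimals that may have been dropped, was added after seeing the data. 1 relative of the members is not reported here.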

Additional observations from a re-analysis of the deposited data

How the results depend on the processing

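The direction of the 6 genes against DMSO was kept under all alternatives run, and counts of calls moved more. Other than for BI-9564 against PFI-3, the counts of members called share libraries with the choice of the genes and only show how the processing moves them. Of all genes tested, 0% were called lower for PFI-3 and 0.0783% for BI-9564 against DMSO. The shares were 1.05% for P+B against PFI-3 and 0.196% for P+B against BI-9564. An unadjusted limma p under 0.05, in either direction, was found for 6.79% of all genes with PFI-3 and 14.9% with BI-9564 against DMSO. For PFI-3 against DMSO the count was 0 (limma, with 4 at an unadjusted p under 0.05), and 2 without a filter, a fit in which most residual variances were 0 and limma warned that its moderation was unreliable. For BI-9564 against DMSO it was 0 (4 at an unadjusted p under 0.05), and 2 with the replicate block and without a filter, and 1 with a pseudocount of 5, a pseudocount of 1.5 (chosen after seeing the data), quantile normalization and median centring. For P+B against PFI-3 it was 2 (*Misp* and *Flnc*), and 3 with the block and without a filter, 1 with a filter of at least 1 and of at least 20 (which leaves out *Misp* and *Tgm2*), 0 without trend and in the fit of 4 libraries, and 0 to 2 with a library left out (2 only without P+B replicate 1). For P+B against BI-9564 it was 1 (*Flnc*), and 0 with a filter of at least 1, without trend and in the fit of 4 libraries, and 0 to 1 with a library left out (1 only without P+B replicate 1). For BI-9564 against PFI-3 it was 0, and 1 with the block and without a filter. Other genes of the lists called with P+B numbered 6, and 10 with the block and with median centring, 11 without a filter, 0 in the fit of 4 libraries, and 1 to 5 with a library left out (1 without either DMSO library, 2 without P+B replicate 2). The members' median with P+B of −1.75 was −1.30 with a pseudocount of 5 and −0.59 with a filter of at least 20, when 4 members were left. Reversed values were all small. *Actn4* was at 0.02 against PFI-3 with quantile normalization, and against BI-9564 at −0.03 with median centring and −0.07 without BI-9564 replicate 1. Between BI-9564 and PFI-3, leaving out libraries gave −0.17 to 0.09 for *Flna* (above 0 without PFI-3 replicate 2 or BI-9564 replicate 1), −0.10 to 0.18 for *Actn1* (below 0 without PFI-3 replicate 1), −0.11 to 0.05 for *Actn4* (above 0 without BI-9564 replicate 1) and −0.97 to 0.03 for *Tgm2* (above 0 without BI-9564 replicate 2). Beyond the alternatives' own construction the cause was not tested. In these 5 comparisons the block added the calls of *Misp* and *Tgm2* for BI-9564 against DMSO, of *Tgm2* for P+B against PFI-3 and of *Misp* for BI-9564 against PFI-3, and changed no other call of a member. Ratios within a library were recomputed only for pseudocounts and left-out libraries, since the other choices do not enter them. With 2 libraries per group and no read depth, differences between values of a few TPM are not resolved.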
